A study of Mus musculus with 18 samples.

Results

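The 10 genes described here encode the contractile machinery of smooth muscle: Acta2, Actg2, Myh11, Mylk, Lmod1, Tagln, Cnn1, Smtn, Synpo2 and Des. They were chosen by symbol, with earlier results of these data known, and all 10 were found among the 23238 gene symbols counted in every library. RNA was profiled in 18 libraries from the small intestine of adult C57BL/6J mice, made with the QuantSeq kit, which reads only the 3′ end of each transcript. Per the labels, every mouse carried the tamoxifen-inducible PDGFRb-CreERT2 driver and the Tomato reporter (PDGFRb+-CreERT2-Tomato+, WT), and the LATS1/2 KO mice carried Lats1f/f and Lats2 f/f alleles in addition. PDGFRb+ intestinal stromal cells (IntSCs) were sorted as reporter-positive cells from WT (n = 6) and LATS1/2 KO mice (n = 5), and lacteal lymphatic endothelial cells (LECs) were sorted from WT (n = 4) and LATS1/2 KO mice (n = 3). The study describes the sequenced controls in the same way, as reporter mice with the driver, and its methods state that the serosa and the muscle layer were removed before the tissue was dissociated. The driver is active in fibroblasts, pericytes and a subset of smooth muscle cells of the villus, so an IntSC library is a mixture of these cells.

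In smooth muscle, actin and myosin filaments slide past each other after myosin light chain kinase has phosphorylated the regulatory light chain of myosin. Calponin, smoothelin, transgelin and leiomodin bind or build the actin filaments, and desmin anchors them to the rest of the cell. In the villus, strands of smooth muscle run along the lacteal and shorten it, which helps to move absorbed fat into the lymph. Many of these genes are switched on by serum response factor and its partner myocardin at a DNA element called the CArG box. LATS1 and LATS2 are the kinases of the Hippo pathway that restrain YAP and TAZ, which act on DNA through TEAD factors at the motif GGAATG, so the deletion of both kinases addresses what unrestrained YAP and TAZ do in PDGFRb+ cells.

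Promoter sequence from RefSeq (assembly GRCm38.p6, the mm10 build that the labels name) was matched for 7 of the 10 genes: Acta2, Cnn1, Des, Lmod1, Mylk, Smtn and Synpo2. Over the 250 bases before the start, GGAATG or its reverse complement CATTCC was present in 4 of the 7 (Acta2, Lmod1, Mylk and Smtn), and in 12.6% of all 32851 RefSeq promoters of that length. A perfect CArG box, CC followed by 6 A or T and then GG, was present in 0 of the 7 and in 1.47% of all promoters. With 1 G or C allowed among those 6 bases, it was present in Acta2 alone, at 2 places, and in 8.59% of all promoters. The stretches with a match are shown because they place both kinds of motif relative to these genes, with the motif in capitals and each written 5′ to 3′ on the strand of the gene. The Lmod1, Smtn and Mylk windows stop where GENCODE vM21 annotates an exon of the gene. The Mylk and Smtn starts are internal ones, since the annotated gene begins upstream of each. Their windows therefore lie within the annotated gene. The Acta2 matches lie within the first exon of GENCODE vM21, a 5′ untranslated exon, so only short stretches around them are given. Windows of Lmod1 (chr1:135324563-135324806, + strand), Smtn (chr11:3539324-3539542, - strand) and Mylk (chr16:34784700-34784920, + strand) are followed by the Acta2 stretches at chr19:34255504-34255529, chr19:34255438-34255467 and chr19:34255388-34255417 (- strand).
Lmod1: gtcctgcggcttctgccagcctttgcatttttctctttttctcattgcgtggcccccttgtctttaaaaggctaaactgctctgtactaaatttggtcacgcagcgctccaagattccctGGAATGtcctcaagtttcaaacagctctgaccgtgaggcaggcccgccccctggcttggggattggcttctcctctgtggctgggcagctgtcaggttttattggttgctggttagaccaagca
Smtn: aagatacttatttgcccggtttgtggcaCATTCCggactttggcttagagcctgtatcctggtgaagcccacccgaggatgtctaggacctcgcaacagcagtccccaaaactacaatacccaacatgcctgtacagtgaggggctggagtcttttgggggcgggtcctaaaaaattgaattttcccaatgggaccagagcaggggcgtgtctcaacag
Mylk: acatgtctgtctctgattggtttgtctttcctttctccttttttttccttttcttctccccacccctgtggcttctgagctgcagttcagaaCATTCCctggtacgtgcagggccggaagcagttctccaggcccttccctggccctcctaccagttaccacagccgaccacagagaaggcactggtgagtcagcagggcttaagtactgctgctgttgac
Acta2, TEAD-type motif: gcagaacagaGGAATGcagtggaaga
Acta2, upstream CArG-like: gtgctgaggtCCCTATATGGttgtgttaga
Acta2, downstream CArG-like: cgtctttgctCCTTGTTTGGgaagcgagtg
The GGAATG of Acta2 lay 146 to 141 bases before the RefSeq start and its CArG-like elements 84 to 75 and 34 to 25 bases before it. The TEAD-type motif lay 130 to 125 bases before the start in Lmod1, 158 to 153 in Mylk and 222 to 217 in Smtn. A match describes letters in a window and no binding was measured here.

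Total counts ranged from 5361250 to 10549233 per library, and levels are given as CPM, the counts of a gene scaled to the size of its library with TMM factors over all 18 libraries. Before the TMM factors were applied, a count of 3 corresponded to 0.284 to 0.560 CPM. A value of 0 CPM thus allows a level up to about that limit, which covers counting error only because the reads carried no molecular identifiers. The mean summed CPM of 6 fibroblast markers was 11998.9 in WT and 8705.88 in KO IntSCs against 899.787 in WT and 377.673 in KO LECs, and that of 9 LEC markers was 11179.7 and 11816.4 in WT and KO LECs against 319.901 and 467.599 in WT and KO IntSCs. Pdgfrb, which drives the Cre, averaged 484 CPM in WT and 878 CPM in KO IntSCs and 28.2 and 10.6 CPM in the LECs. In IntSCs it ranged from 215 to 679 CPM in WT and from 694 to 1187 CPM in KO. These groups did not overlap, as for 2.83% of all genes tested, and the part of this difference in the smooth muscle values was not tested. Neither targeted gene passed the test between KO and WT IntSCs, where Lats1 was 16.0 ± 3.28 CPM (SD, n = 5) against 17.5 ± 10.3 CPM (SD, n = 6) in WT, and Lats2 was 114 ± 20.3 against 72.8 ± 23.7 CPM (edgeR, adjusted p = 0.987 and 0.252). Counts at the 3′ end need not fall when internal exons are deleted, so they do not check the genotype.

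All 10 genes were read in every IntSC library, with means in WT from 16.0 CPM for Actg2 to 1960 CPM for Mylk, as the plot of CPM by library shows. The libraries thus held transcripts of smooth muscle genes although the muscle layer had been removed. After LATS1/2 deletion, 0 of the 10 genes passed the threshold of an adjusted p under 0.05 in the edgeR test across 12421 genes, and none of the 10 separated the KO libraries from the WT libraries. Over all genes tested, 1.47% passed, and the groups did not overlap for 2.83%. DESeq2 called 0 of the 10 as well, and 376 of the 12421 genes. At an unadjusted p under 0.05, 3 of the 10 differed (Des and Lmod1 higher, Smtn lower), against 9.81% of all genes. The estimate was above 0 for 7 and below 0 for 3 genes, with a median log2 fold change of 0.29 against 0.0026 over all genes. In these bulk libraries, fewer cells of a type and less RNA per cell cannot be told apart.

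**Figure D1:**
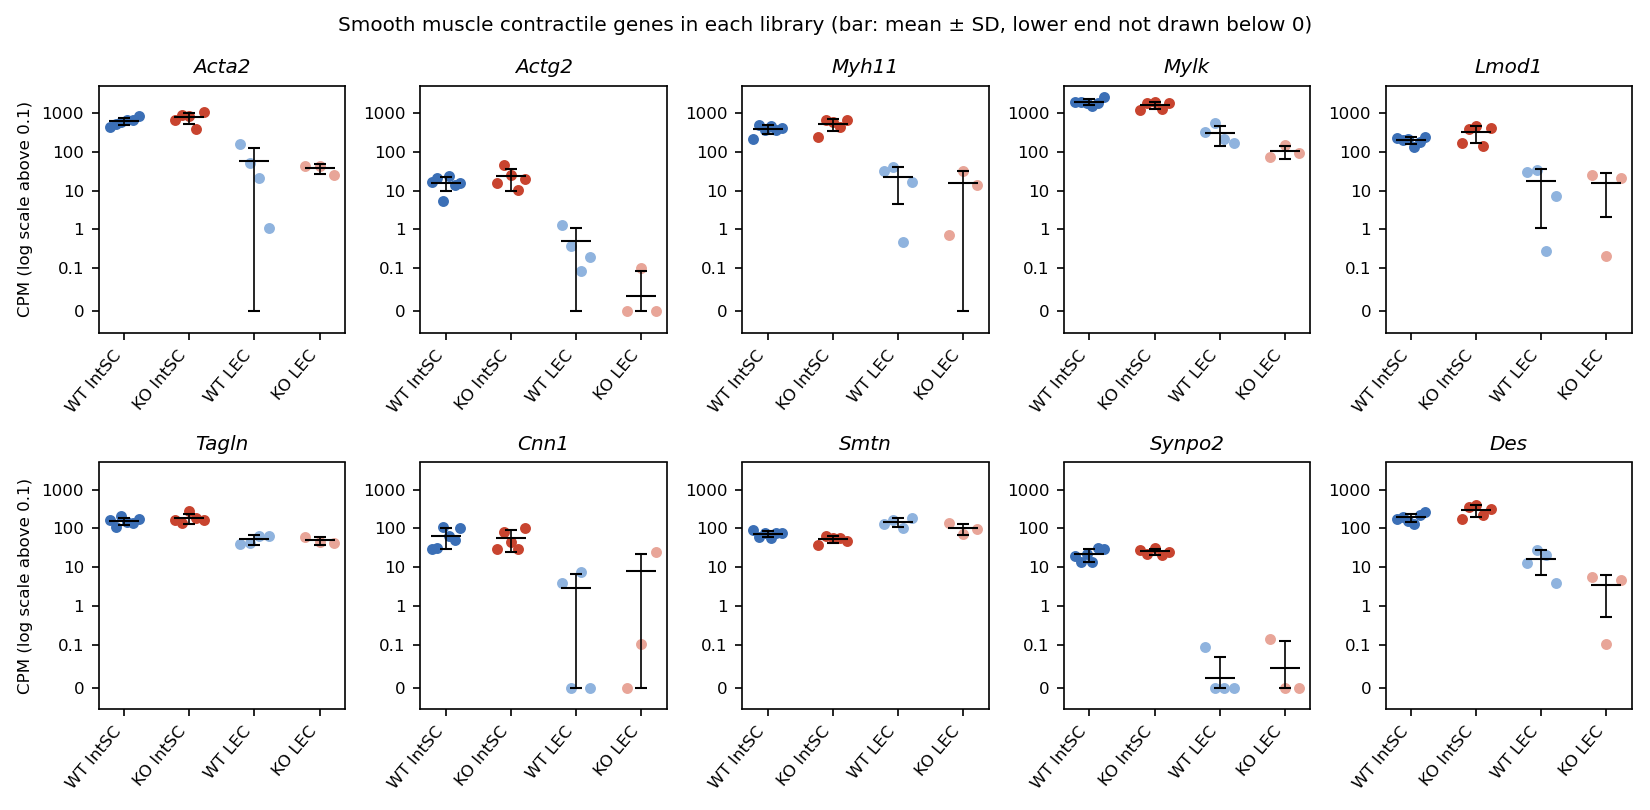
CPM of each gene (y axis, logarithmic above 0.1) in each library of the 4 groups (x axis), with 1 point per library and the mean ± SD as a bar whose lower end is not drawn below 0. WT and KO IntSC points overlap for all 10 genes, and every LEC point lies below every IntSC point of the same genotype except for Smtn, where the LEC points lie above.

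Acta2, the smooth muscle alpha actin of the thin filaments, ranged in WT IntSCs from 439 to 845 CPM with a median of 616 CPM. The 5 KO IntSC libraries had 669, 888, 852, 382 and 1064 CPM. Replicates 2, 3 and 5 of the KO lay above every WT library and replicate 4 below every one. The log2 fold change was 0.31 ± 0.22 (SE), with a 95% interval from -0.14 to 0.77 and an adjusted p of 0.753. Actg2, the enteric gamma actin, had far fewer reads. It ranged from 5.55 to 23.4 CPM with a median of 16.0 CPM in WT, and the KO libraries had 15.6, 45.2, 24.9, 10.4 and 20.1 CPM. Only replicates 2 and 3 of the KO exceeded all WT libraries, and the log2 fold change of 0.53 ± 0.45 had an adjusted p of 0.829.

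Myh11, the smooth muscle myosin heavy chain, ranged from 217 to 488 CPM with a median of 389 CPM in WT. The KO libraries had 246, 659, 599, 427 and 676 CPM, again with replicates 2, 3 and 5 above every WT library. The log2 fold change was 0.43 ± 0.24 with an adjusted p of 0.610. Mylk, the myosin light chain kinase, had the most reads of the 10 and went the other way: the WT libraries ranged from 1563 to 2671 CPM with a median of 1880 CPM, and the KO libraries had 1214, 1872, 1981, 1276 and 1778 CPM. Replicates 1 and 4 of the KO lay below every WT library, and the log2 fold change was -0.27 ± 0.17 (95% interval -0.63 to 0.08, adjusted p = 0.693). Telokin is made from the last part of the Mylk gene and shares its 3′ end, so 3′ counts cannot separate it from the kinase.

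Des, desmin, an intermediate filament protein of muscle, had the smallest p of the 10. The study also shows desmin in fibroblasts of the villus, so Des reads here need not come from smooth muscle. Its WT libraries ranged from 132 to 260 CPM with a median of 186 CPM. The KO libraries had 178, 355, 409, 217 and 312 CPM, so replicates 2, 3 and 5 exceeded all WT libraries and replicates 1 and 4 lay among them. The 1.54-fold difference (95% interval 1.12 to 2.12) did not pass the adjustment over all genes (log2 0.62 ± 0.22, adjusted p = 0.240). Lmod1, leiomodin, which starts new actin filaments, had a similar layout. It ranged from 136 to 249 CPM with a median of 209 CPM in WT and was 171, 398, 461, 142 and 413 CPM in the KO libraries. The KO values thus lay in a high set of replicates 2, 3 and 5 and a lower set of replicates 1 and 4, with a coefficient of variation of 47.0% against 19.7% in WT. The log2 fold change was 0.65 ± 0.26 with an adjusted p of 0.353.

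Smtn, smoothelin, an actin-binding protein of contractile cells, was the lowest of the 10 in the KO relative to WT. It ranged from 57.6 to 90.0 CPM with a median of 76.0 CPM in WT, and the KO libraries had 37.8, 65.5, 56.2, 54.9 and 46.1 CPM. Of the 5 KO libraries, 4 lay below every WT library, and the log2 fold change of -0.48 ± 0.22 had an adjusted p of 0.481. Tagln, transgelin, an actin cross-linker, had KO values of 160, 141, 278, 186 and 164 CPM against 106 to 207 CPM (median 153 CPM) in WT, with an adjusted p of 0.811. Its 3′ end is overlapped on the opposite strand by Pcsk7, which had 21.5 to 71.1 CPM in the IntSCs, and whether the counting used strand is not given in the sources used here, so their reads cannot be told apart. Antisense genes overlap the last kilobase of Des and Mylk in the same way. Cnn1, calponin, which inhibits the myosin ATPase, was 30.1, 81.1, 43.2, 29.2 and 99.7 CPM in the KO and 28.9 to 111 CPM (median 57.1 CPM) in WT. Every KO value of Cnn1 lay within the WT range. Synpo2, an actin-bundling protein of muscle cells, was 27.9, 21.5, 32.1, 21.2 and 25.1 CPM in the KO and 13.2 to 32.0 CPM (median 20.4 CPM) in WT. The adjusted p was 0.952 for Cnn1 and 0.933 for Synpo2, and the 95% interval of the fold change ran from 0.495 to 1.53 for Cnn1 and from 0.711 to 1.97 for Synpo2.

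**Figure D2:**
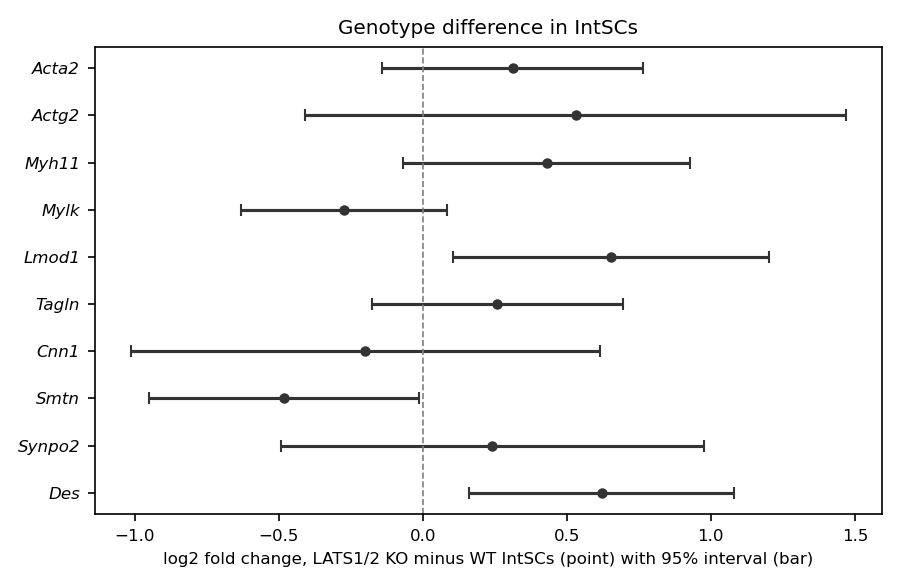
Log2 fold change of LATS1/2 KO against WT IntSCs (x axis) for each gene (y axis), with the edgeR estimate as a point and its 95% interval as a bar. The estimates run from -0.48 for Smtn to 0.65 for Lmod1, and the interval lies above 0 for Des and Lmod1 and below 0 for Smtn before adjustment over all genes.

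The summed CPM of the 10 genes was 3686 ± 572 in WT (SD, n = 6) and 3871 ± 1028 in KO IntSCs (SD, n = 5). Within that sum, Mylk made up 47.7 to 59.2% in the WT libraries and 38.7 to 46.5% in the KO libraries, so the ranges did not overlap. The share of Des was 4.03 to 6.36% in WT and 6.48 to 8.64% in KO, which did not overlap either, with the KO higher. These were the only 2 of the 10 genes whose share of the sum separated the genotypes. Since they were singled out after their values were seen, no test is given, and no matching count over all genes was made. The shares are tied to each other, so a lower share of Mylk raises those of the other genes. In CPM, both Mylk and Des overlapped between the genotypes. Expressed without scaling, there were 8.04 to 11.8 Mylk reads per Des read in the WT libraries and 4.84 to 6.82 in the KO libraries.

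**Figure D3:**
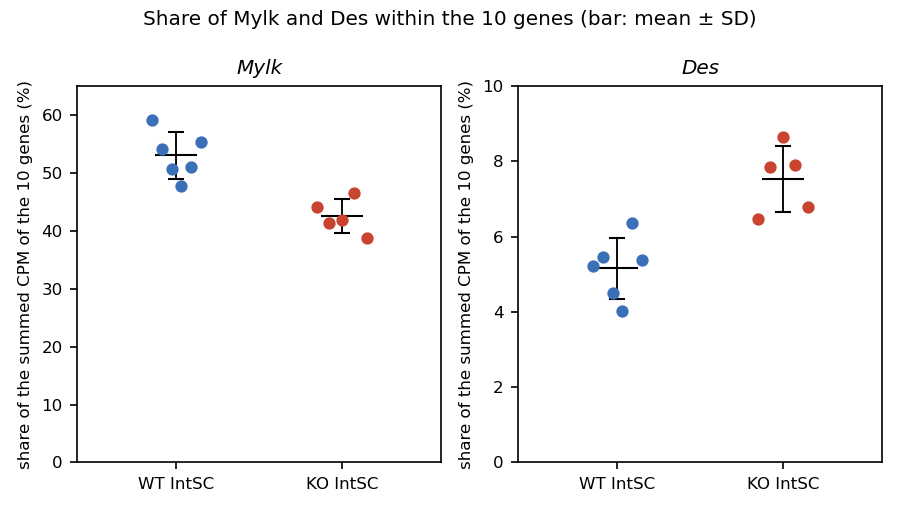
Share of Mylk and of Des in the summed CPM of the 10 genes (y axes, percent, from 0) in WT and KO IntSC libraries, with 1 point per library and the mean ± SD as a bar. The Mylk share is 38.7 to 46.5% in the KO libraries and 47.7 to 59.2% in the WT libraries, and the Des share is at least 6.48% in every KO library and at most 6.36% in every WT library.

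Library 6 of the WT IntSCs stood apart in the summed level, with 4828 CPM against at most 3596 CPM in the other WT libraries. It also had the lowest total count, the highest share of ribosomal precursor reads (24.4% against 13.0 to 19.2% in the other WT IntSC libraries), the lowest summed fibroblast markers (9592 CPM against 10266 CPM or more) and the lowest summed pericyte markers (179 CPM against 263 CPM or more). The part of these differences in its smooth muscle values was not tested. Without this library 0 of the 10 genes passed, and the log2 fold change of Des was 0.73 (adjusted p = 0.124), that of Lmod1 0.73 (0.295) and that of Mylk -0.16 (0.871).

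Markers of other cells were compared between the genotypes in the same libraries, and few of them were called. The summed fibroblast markers ranged from 9592 to 14470 CPM in WT and from 6073 to 10676 CPM in KO IntSCs, with 1 of 6 called lower (Col3a1), and the 7 pericyte markers from 179 to 358 CPM in WT and from 130 to 219 CPM in KO, with 1 of 7 called lower (Kcnj8). Kcnj8 was higher in LECs than in IntSCs in WT (log2 1.55, edgeR adjusted p = 0.00333) and in KO (2.56, 0.00363). It therefore does not mark pericytes against LECs here. The 6 blood endothelial markers summed to 345 to 552 CPM in WT and 417 to 1117 CPM in KO, with 0 of 6 called. The 5 Paneth cell markers summed to 0.542 to 10.5 CPM in WT and 55.2 to 131 CPM in KO, where 2 of the 3 tested were called higher. The 6 epithelial markers summed to 0 to 32.2 CPM in WT and 5.36 to 72.5 CPM in KO, with 1 of the 4 tested called higher (Krt19, which had no read in WT). The 9 LEC markers summed to 238 to 422 CPM in WT and 430 to 502 CPM in KO, with 0 of the 8 tested called. Most of that sum was Pdpn, which averaged 239 CPM in WT and 329 CPM in KO IntSCs. Pdpn did not pass between WT LECs and WT IntSCs (edgeR, adjusted p = 0.457), so it does not tell these cells apart here. Interstitial cells of Cajal (3 markers, 7.31 to 42.9 CPM over all IntSC libraries), enteric glia (4 markers, 0.654 to 26.3 CPM, Gfap with no read) and leukocytes (5 markers, 15.5 to 35.2 CPM) were low in both genotypes. Their part in the smooth muscle values was not tested.

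Across the 11 IntSC libraries, the 10 genes varied together to different degrees. After the group means were subtracted from log2(CPM + 1), Pearson's r between pairs of the genes had a median of 0.42 over 45 pairs, with a range from -0.46 (Actg2 and Tagln) to 0.92 (Des and Mylk). It was above 0 for 40 pairs and above 0.5 for 11. The tightest group was Des, Mylk and Lmod1: Lmod1 correlated with Mylk at 0.89 and with Des at 0.82. Acta2 followed Cnn1 at 0.75. With the mean profile of the other 9 genes, r was 0.88 for Mylk, 0.87 for Des, 0.85 for Lmod1 and 0.68 for Acta2, but 0.17 for Tagln and 0.25 for Actg2. Tagln, often taken as a general marker of smooth muscle, thus had the lowest r, close to that of Actg2. Its reads cannot be told apart from those of Pcsk7. These values describe 11 libraries that share depth and composition and carry no test.

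**Figure D4:**
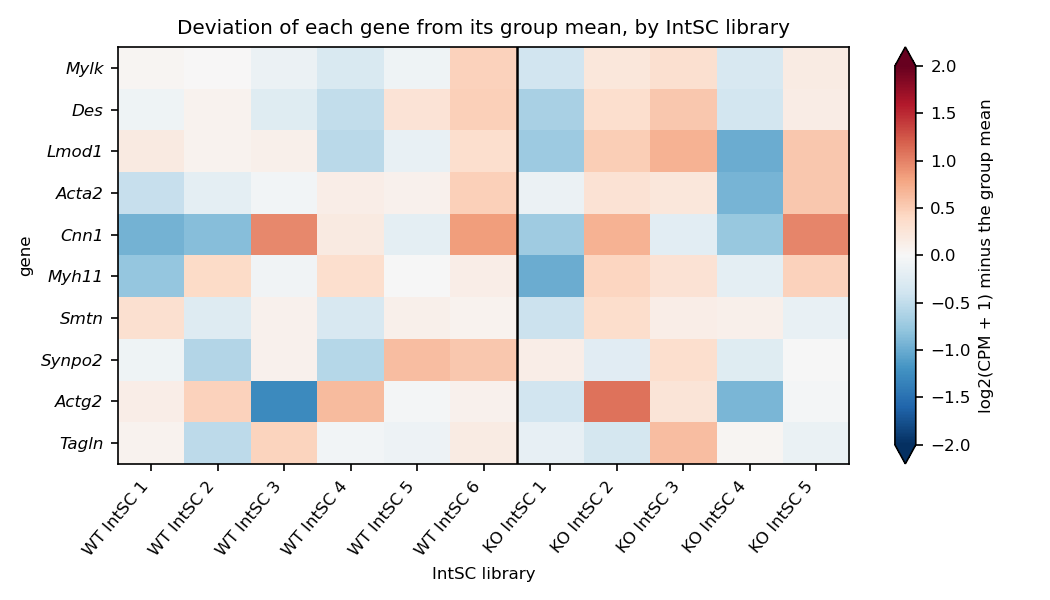
Deviation of log2(CPM + 1) from the group mean (colour) for each gene (rows, ordered by r with the other genes) in each IntSC library (columns, with a line between WT and KO). WT library 6 and KO libraries 2 and 3 are above their group means for the tightest genes Mylk, Des and Lmod1, and KO libraries 1 and 4 are below.

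A mean of at least 20 CPM in IntSCs was reached by 6443 genes, members of the 10 included, and the 10 were then set aside. Among the rest, the 8 whose profile was most like the mean profile of the 10 included Rbpms2 (r = 0.92), Tuba1c (0.88), Actr10 (0.88), Tmed10 (0.87), Csrp1 (0.87), Hmgcs1 (0.87) and Ints7 (0.87), over 11 libraries each. The 95th percentile over the genes screened was 0.565, and the highest of so many values are high in part because they were chosen. Rbpms2, an RNA-binding protein of visceral smooth muscle, averaged 45 CPM in WT against 79.4 CPM in KO IntSCs (adjusted p = 0.240) and was lower in WT LECs (log2 fold change -4.95, adjusted p = 0.00166). Csrp1, a LIM protein of smooth muscle, had 806 and 731 CPM.

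The rest of the contractile apparatus was tested as a list of 32 genes, of which 31 passed the filter on low counts. In KO IntSCs, 2 were higher, 1 was lower and 28 did not pass, with a median log2 fold change of 0.13. Tns1, tensin, which links actin to adhesion sites, rose from 199 ± 28.7 CPM in WT (SD, n = 6, range 164 to 244 CPM) to 379 ± 39.9 CPM in KO (SD, n = 5, range 328 to 423 CPM), a log2 fold change of 0.93 ± 0.16 with an adjusted p of 0.0032. Every KO library lay above every WT library. Itga8, the integrin alpha 8 chain, which is expressed by smooth muscle cells and some fibroblasts, rose from 0 to 3.19 CPM in WT to 6.57 to 30.7 CPM in KO (log2 fold change 3.52 ± 0.89, adjusted p = 0.0497), just inside the threshold. Mrvi1, a substrate of cyclic GMP kinase that lowers calcium release in smooth muscle, fell by 1.35 on the log2 scale (SE 0.28, adjusted p = 0.0172), from 54.7 to 113 CPM in WT to 20.4 to 47.5 CPM in KO.

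Of 16 regulators of these genes, 14 were tested and 0 passed in KO IntSCs, where the count at an unadjusted p under 0.05 was 4 and the median log2 fold change 0.32. The 5 with the smallest p were all higher in the KO by estimate: Notch3, a receptor of mural cells, at 0.75 ± 0.24 (adjusted p = 0.149), the TGF beta receptor Tgfbr2 at 0.85 ± 0.29 (0.220), the protein kinase Rock2 at 0.56 ± 0.21 (0.314), the transcription factor Klf4 at 0.49 ± 0.20 (0.342) and the Notch target Heyl at 1.39 ± 0.83 (0.656). Of 21 non-muscle and striated muscle relatives of the 10 genes, 13 were tested and 1 passed. Synpo, synaptopodin, the relative of Synpo2, rose from 25.7 to 46.0 CPM in WT to 66.3 to 125 CPM in KO, without overlap (log2 fold change 1.14 ± 0.25, adjusted p = 0.0219).

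The comparison of the 2 sorted cell types in WT mice asks which of the 10 genes belong to the stromal sort. All 10 passed, against 22.6% of 12203 genes tested: 9 were lower in LECs, where 12.3% of all genes were lower, and Smtn was higher, where 10.3% were higher. The median log2 fold change was -3.50 against -0.04 over all genes. The WT LEC and WT IntSC libraries did not overlap for any of the 10 genes, against 21.1% of all genes. This comparison shares its IntSC libraries with the genotype comparison above.

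Among the actins, Acta2 was 159, 52.1, 21.7 and 1.10 CPM in the WT LEC libraries, a log2 fold change of -3.39 ± 0.84 (adjusted p = 0.00993). Without replicate 2 of the WT LECs the adjusted p was 0.0542. The level was 9.47% of the IntSC mean, but the single libraries ran from 0.178% to 25.8%. Actg2 was 1.33, 0.370, 0.0937 and 0.200 CPM (log2 -4.95 ± 1.16, adjusted p = 0.00592), and 3 of these libraries held 3 reads or fewer. For the myosin genes, Myh11 was 32.2, 41.2, 0.469 and 16.4 CPM (log2 -4.10 ± 0.75, adjusted p = 0.00123) and Mylk was 320, 544, 211 and 173 CPM (log2 -2.65 ± 0.31, adjusted p = 1.3e-05). Mylk was therefore present in every LEC library, at 15.9% of the IntSC mean.

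Des was 13.0, 28.1, 21.2 and 4.0 CPM in the WT LEC libraries (log2 -3.52 ± 0.45, adjusted p = 3.6e-05) and Lmod1 was 30.2, 35.0, 0.281 and 7.10 CPM (log2 -3.47 ± 0.78, adjusted p = 0.00538). Cnn1 was 3.80, 0, 7.69 and 0 CPM (log2 -4.46 ± 1.13, adjusted p = 0.0109). Lmod1 had 3 reads in 1 of these libraries and Cnn1 had no read in 2, while Des had reads in all 4. Synpo2 was nearly absent, with 1 read in 1 of the 4 WT LEC libraries against 831 reads in the 6 WT IntSC libraries, a ratio of CPM of 857 with a 95% counting interval of 153 to 33874. Tagln and Smtn behaved differently from the others. Tagln was 39.0, 40.8, 62.6 and 64.7 CPM, only 2.98 times below IntSCs (log2 -1.58 ± 0.27, adjusted p = 0.0006), and was steady between libraries, with a coefficient of variation of 26.5% against 120% for Acta2. Pcsk7, whose reads cannot be told apart from those of Tagln, had 68.8 to 107 CPM in the WT LECs. Smtn was 133, 164, 99.8 and 180 CPM in WT LECs, 1.99 times the IntSC level (95% interval 1.38 to 2.85, adjusted p = 0.0089). Isoforms of Smtn that share a 3′ end are not separated by these counts.

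**Figure D5:**
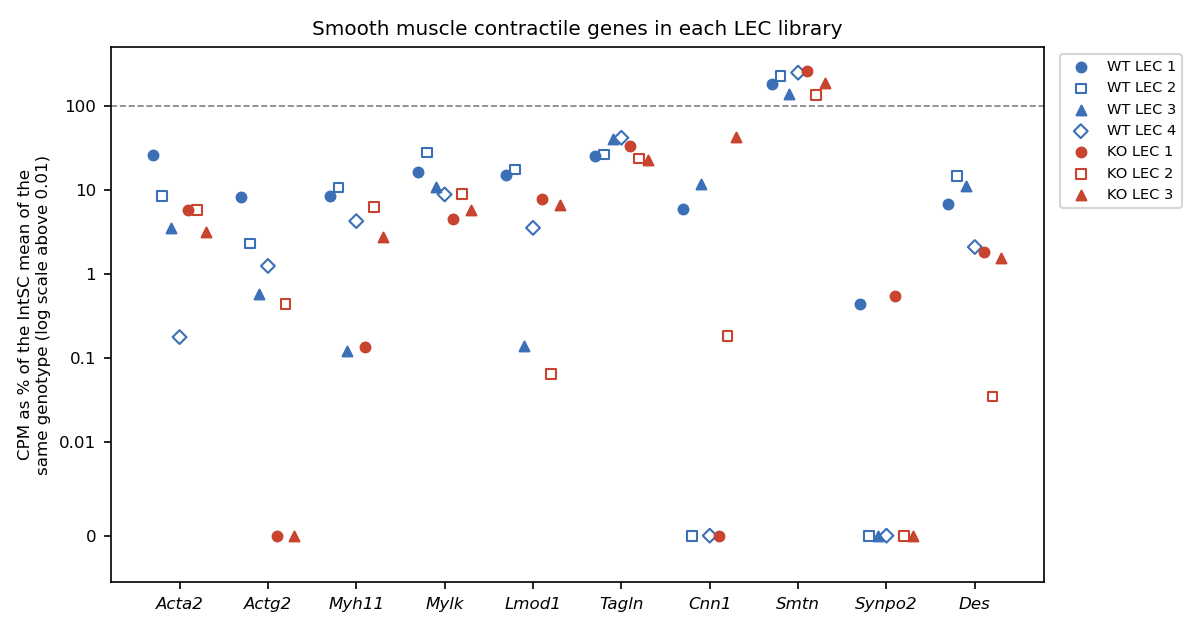
CPM of each gene (x axis) in each LEC library as a percent of the mean of the IntSC libraries of the same genotype (y axis, logarithmic above 0.01, dashed line at 100%), with WT libraries in blue and KO libraries in red. Smtn lies above 100% and Tagln between 22.4% and 41.6% in all 7 libraries, while Acta2, Myh11, Lmod1, Cnn1 and Des scatter over more than an order of magnitude, and the lowest library is not the same for every gene.

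The LEC libraries did not rank the genes alike. Library 4 of the WT LECs had 11 reads of Acta2 and 164 of Myh11, and library 3 had 232 of Acta2 but 5 of Myh11 and 3 of Lmod1, although it had 226 of Des. In the KO, library 1 had 315 reads of Acta2 and 177 of Lmod1 but 5 of Myh11, library 2 had 431 of Acta2 and 315 of Myh11 but 2 of Lmod1 and 1 of Des, and library 3 had 195 reads of Cnn1 where the other KO libraries had 0 and 1. The ratio of Acta2 to Myh11 reads ran from 0.0671 to 63.0 over the 7 LEC libraries and from 0.895 to 2.72 over the 11 IntSC libraries. The ratio of Lmod1 to Myh11 reads ran from 0.00635 to 35.4 in LECs and from 0.287 to 1.03 in IntSCs. Both ratios thus left the IntSC range on either side. Library 1 of the WT LECs, which had the highest Acta2, also had the highest summed fibroblast markers (1863 CPM against 556 to 605 CPM in the other WT LEC libraries) and the highest Pdgfrb (69.1 against 1.70 to 29.1 CPM). Without it Acta2 still passed in the WT comparison, and all 10 genes did. The LEC libraries had 10576 to 12059 genes with a read, against 11848 to 15926 in IntSCs, and the part of these differences in the scatter was not tested.

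In LATS1/2 KO mice, 9 of the 10 genes passed between LECs and IntSCs, against 25.9% of 12758 genes, whose median log2 fold change was -0.21: 8 were lower in LECs (16.8% of all genes were lower) and Smtn was higher (9.11% were higher). The 3 KO LEC libraries had 44.0, 44.5 and 24.7 CPM of Acta2 (log2 -4.35 ± 0.40, adjusted p = 3.7e-05), 72.6, 146 and 94.2 CPM of Mylk (log2 -3.96 ± 0.32, adjusted p = 1.5e-05) and 61.4, 44.0 and 41.6 CPM of Tagln (log2 -1.93 ± 0.30, adjusted p = 0.00124). These genes were present in every library and well below the IntSC libraries. Myh11 was 0.698, 32.5 and 14.3 CPM (adjusted p = 0.00337), Lmod1 was 24.7, 0.206 and 21.0 CPM (adjusted p = 0.0121) and Des was 5.45, 0.103 and 4.59 CPM (adjusted p = 0.000548). Actg2 and Synpo2 had 1 read each in the 3 KO LEC libraries together, against 877 and 968 reads in the KO IntSCs. Scaled to library size, this is a ratio of 582 for Actg2 (95% counting interval 104 to 23029) and of 643 for Synpo2 (115 to 25416). Cnn1 did not pass, at 0, 0.103 and 24.2 CPM (log2 -2.81 ± 1.49, adjusted p = 0.208). The call of Cnn1 rests on library 3: without it the gene passed with an adjusted p of 0.000305. Smtn was 134, 70.1 and 96.0 CPM, against 37.8 to 65.5 CPM in the KO IntSCs, so the groups did not overlap, as for 32.3% of all genes, but its adjusted p of 0.0490 was just inside the threshold, and the call was lost on leaving out any of 7 of the 8 libraries (adjusted p from 0.0595 to 0.159).

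Between KO and WT LECs, the cells that neighbour the targeted stroma, 8 of the 10 genes had enough reads to be tested (Actg2 and Synpo2 did not) and 0 of the 8 passed, where 0.0658% of 10639 genes did. At an unadjusted p under 0.05 there was 1, Mylk, against 7.87% of all genes. Its WT LEC libraries had 173 to 544 CPM and its KO LEC libraries 72.6 to 146 CPM, without overlap, as for 9.93% of all genes (6.45% with the KO lower). The log2 fold change of Mylk was -1.51 ± 0.42 (95% interval -2.42 to -0.60) with an adjusted p of 0.295. DESeq2 called Mylk with an adjusted p of 0.0328, and so did the edgeR fit of all 4 groups (0.00787). These called 309 of 10639 and 538 of 14015 genes, against 7 in the main fit. The intervals of the others were wide, from -2.71 to 1.58 for Acta2 and from -3.65 to 3.27 for Lmod1 on the log2 scale, so changes of several fold were not detectable. Smtn averaged 144 CPM in the 4 WT LEC libraries (SD 35.7) against 99.9 CPM in the 3 KO LEC libraries (SD 31.9), with a log2 fold change of -0.46 ± 0.36 and an adjusted p of 0.970. The summed fibroblast markers were 556 to 1863 CPM in WT and 254 to 517 CPM in KO LECs, and their part in these values was not tested.

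Whether the genotype difference itself differed between IntSCs and LECs was tested as an interaction over all 18 libraries. Of the 10 genes, 0 passed, where 1.7% of 14015 genes did, and 3 had an unadjusted p under 0.05 (Des, Mylk and Actg2), against 15.8% of all genes. The estimates, as the difference in IntSCs minus that in LECs, were 2.93 ± 0.86 for Des (adjusted p = 0.0933), 1.31 ± 0.40 for Mylk (0.0964) and 3.79 ± 1.51 for Actg2 (0.207), beside a median of 0.24 over all genes. DESeq2 called 1 of the 10, Des, with an adjusted p of 0.00935, where it called 1023 of the 14015 genes. Leaving out replicate 2 of the KO LECs or replicate 4 of the WT LECs brought both Des and Mylk past the threshold (adjusted p from 0.0263 to 0.0381). Over all genes, 461 and 314 passed in these fits.

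The other lists followed the cell type less completely than the 10 genes. Of the 31 other contractile genes tested, 17 were lower and 4 higher in WT LECs, and the median of their log2 fold changes was -1.23. Named after their values were seen, the tropomyosin Tpm2 averaged 194 CPM in WT IntSCs against 13.0 CPM in WT LECs and the regulatory light chain Myl9 378 and 36.0 CPM, while Tns1 (log2 1.65, adjusted p = 5.6e-05), the small heat shock protein Hspb1 (1.51) and Pgm5 of adhesion plaques (1.39) were among those higher in LECs. Of 14 regulators tested, 5 were lower and 1 higher in WT LECs. Myocd, myocardin, had no read in the 4 WT LEC libraries, where 3 counts are at most 0.402 CPM before the TMM factors, and 7.39 to 35.3 CPM in the WT IntSCs, and Tgfbr2 was higher (log2 1.34, adjusted p = 0.0121). Of 12 non-muscle and striated relatives tested, 4 were higher (Actg1, Cnn3, Synpo and Tagln2) and 3 lower (Cnn2, Myh10 and Smtnl2) in WT LECs. The relatives Cnn3 (549 against 113 CPM) and Tagln2 (2780 against 1455 CPM) were thus more abundant in LECs, where Cnn1 and Tagln were less abundant. In LECs, 0 of the 25 other contractile genes, 0 of 11 regulators and 0 of 12 relatives passed between the genotypes, with 4, 4 and 2 of them at an unadjusted p under 0.05. In the interaction, 3 of 31 contractile genes (Hspb1 and Jph2 among them) and 1 of 15 regulators (Mkl2) passed, each with a higher difference in IntSCs. Over all genes 1.7% passed, and 199 of those 238 genes had this direction too.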

How the data were processed

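According to the labels and methods, Trizol RNA from sorted cells was made into QuantSeq 3′ libraries and sequenced on an Illumina NextSeq 500. Per the submitters' processing notes, Bowtie2, edgeR and the mm10 build were used, and the methods also name TopHat and Cufflinks. The counting program and annotation are not given in the sources used here. The authors deposited raw counts per gene symbol, 1 table of 23282 rows for each of the 18 libraries, and 35 symbols on more than 1 row (none of the 10 genes) were summed. No 2 libraries held identical values. Sample titles gave the groups and replicate numbers. The study's legends give as many mice in each group as there are libraries and say that several experiments were pooled, and the labels do not say which library came from which experiment, so no batch term could be fitted.

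The main test was the quasi-likelihood test of edgeR 4.0.16 under R 4.3.3 (TMM factors, filterByExpr, robust glmQLFit and glmQLFTest, Benjamini-Hochberg adjustment over all genes tested, threshold 0.05). Each fit held only the 2 groups it compared, and all 18 libraries entered the interaction. Standard errors come from the quasi-likelihood F statistic, and CPM in the text use TMM factors over the 18 libraries. Procedures were tested on simulated data. Python 3.11.15, pandas 2.3.3, scipy 1.17.1 and matplotlib 3.10.9 made the tables, counting intervals (exact, 95%) and plots. Alternatives were DESeq2 1.42.0, RLE and upper-quartile scaling, no filter on low counts, the replicate number as a block, a single fit of all 4 groups, and omission of each library in turn.

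The 10 genes, the lists of other contractile genes, regulators, relatives and markers, and the tests were chosen with earlier results of these data known. Besides the 10 genes, the rule for naming took list genes past the threshold in KO against WT IntSCs, or else the 5 with the smallest p, the 8 genes most like the mean profile, Lats1, Lats2 and Pdgfrb. Other genes are named after their values were seen, and some genes are not reported here. Depth per library, with the limit that 3 counts set, is given with the results. Motifs were searched on both strands.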

Additional observations from a re-analysis of the deposited data

Results flagged for a closer look

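Of 33 groups of 4 to 6 values for the 10 genes and their sum, 2 held a library set apart from the others by Dixon's criterion, where 1.65 are expected by chance. The summed CPM of the 10 genes was 4828 in replicate 6 of the WT IntSCs, against 3596 in the next library, a gap of 0.793 of the whole range. Synpo2 was 0.0951 CPM in replicate 1 of the WT LECs and 0 in the other 3, which is a difference of 1 read.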

How the results depend on the processing

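Of the values of single genes recomputed under the alternatives, 742 kept their direction and their side of the threshold, 32 reversed, 20 lost the call and 8 gained it. In KO against WT IntSCs, 0 of the 10 genes passed under all 6 other alternatives and without each replicate in turn, and only Cnn1 changed sign (-0.49 to 0.036 without a replicate, above 0 without WT replicate 3).

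The replicate numbers were not used to pair the samples in the main test. The mean correlation of deviations between same-numbered libraries was 0.012 in IntSCs, -0.0078 in LECs, 0.029 between the WT cell types and -0.0014 between the KO cell types. Between the WT cell types, the 4 same-numbered pairs ran from 0.0186 to 0.0407, against a mean of -0.0058 for other pairs. Values this small cannot decide whether the samples were paired. As a replicate block, the numbers left 5 of the 10 genes called between WT LECs and IntSCs and 7 in KO, and 0 in the other comparisons. All genes called fell to 122 in IntSCs, 3 in LECs, 1596 and 895 between cell types in WT and KO, and 16 in the interaction. With the block, Tagln in LECs was 0.12, and the interaction was 0.82 for Cnn1 and 0.16 for Synpo2.

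In KO against WT LECs, DESeq2 and the fit of all 4 groups each called 1 gene (Mylk). Tagln was 0.0329 with DESeq2 and 0.0330 with RLE scaling, against -0.008. Leaving out a replicate gave -0.98 to 0.65 for Acta2, -1.50 to 0.14 for Myh11, -0.18 to 0.10 for Tagln, -5.35 to 2.17 for Cnn1 and -0.69 to 0.40 for Lmod1. In the interaction, DESeq2 called 1 gene, and the count without each replicate was 0 to 2. Smtn there was -0.0616 with DESeq2, -0.0616 with RLE scaling and -0.00684 without the filter, and leaving out a replicate gave -0.15 to 0.31 for Smtn, -0.28 to 1.36 for Acta2, -2.82 to 5.11 for Cnn1 and -1.59 to 1.61 for Synpo2. The cause of these changes was not tested.

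The count of genes called over all genes moved more than that of the 10. It was 376 with DESeq2, 27 in the fit of all 4 groups and 99 to 186 without a replicate in IntSCs (183 as reported), 309, 538 and 0 to 16 in LECs (7 as reported, and 32 without the filter), and 1023 with DESeq2 and 161 to 461 without a replicate in the interaction (238 as reported). The median r between the 10 genes was 0.31 to 0.44 without a replicate. Few reads limited the values of Actg2, Cnn1 and Synpo2 in LECs, where several libraries held 0 to 3 reads.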
